A study of Bos taurus with 36 samples.

Results

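The globin genes are the 10 bovine genes whose RefSeq symbol is HB followed by A, B, E, G, M, Q or Z and an optional number: HBE1, HBE2, HBE4, HBG, HBB, HBZ, HBM, HBA, HBA1 and HBQ1. The rule reads the symbol only, and all 10 stand in the count table of 35092 genes. The heart, gonads and liver of 10 male bovine fetuses of 42 days and the blood of their heifers gave 36 RNA libraries: 9 from heart, 9 from gonads, 8 from liver and 10 from maternal blood. Fetuses carry numbers by rising weight, 1 for the lightest and 10 for the heaviest, and each heifer bears the number of her fetus. Heart is missing for fetus 7, gonads for fetus 2 and liver for fetuses 6 and 7, after RNA quality control by the study. The fetuses had been picked for divergent weights, and the dissected organs were frozen with no removal of blood described. Every fetus came from a Day 7 embryo. In ET_D7 the embryo was transferred on Day 7 of the heifer's cycle (fetuses 1 to 5, from 1.253 to 1.37 g), and in ET_D9 it was transferred on Day 9 (fetuses 6 to 10, from 1.396 to 1.69 g). Every ET_D9 fetus was heavier than every ET_D7 fetus, so transfer day and weight cannot be told apart.

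Haemoglobin carries oxygen in red cells as a tetramer of alpha-type and beta-type globin chains, each holding a heme. The genes of each type lie together in a cluster and are used in turn during development: embryonic chains are made in the first, yolk sac derived red cells, and fetal and then adult chains follow as red cell formation moves to the liver and later to the bone marrow. In cattle the fetal beta-type chain is encoded by HBG and the adult one by HBB. A red cell in the vessels of any organ carries globin RNA with it, and the fetal liver also holds the precursors that make red cells.

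In RefSeq (assembly ARS-UCD2.0, used here for names and neighbours only) the beta-type genes lie on chromosome 15 in the order HBE1 (Entrez ID 539994), HBE4 (513108), HBB (280813), HBE2 (513240) and HBG (511735). The alpha-type genes lie on chromosome 25 in the order HBZ (100138582), HBM (100140603), HBA (512439), HBA1 (100140149) and HBQ1 (618325). HBE1, HBE2 and HBE4 are embryonic epsilon-type genes and HBZ is the embryonic zeta gene, HBA and HBA1 are the alpha genes that serve fetal and adult life, and HBM and HBQ1 are the mu and theta genes of the alpha cluster. The counting options for reads that fit several genes are not stated, so counts of near-identical neighbours may be shared or lost. Globin levels were tested between libraries and not between genes. Counts were not corrected for transcript length, so shares, ratios and rankings between genes describe counts and not transcript numbers. Organs and blood were prepared with different kits and are described apart.

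Libraries held 18231089 to 40812354 counts in all. Mitochondrial genes took 17.1% to 57.3% of the counts in heart, 16.3% to 36.8% in liver and 3.31% to 7.23% in gonads. The summed level of 6 hepatocyte markers was 27540 to 53865 CPM (counts scaled to a common library size, TMM-adjusted) in liver against at most 52.4 CPM in heart, and 6 cardiomyocyte markers summed to 36277 to 52243 CPM in heart. Those 6 heart markers also varied in liver, from 10.1 to 1986 CPM, while MB, the myoglobin gene of muscle, was at most 2.02 CPM there. In the libraries labelled gonads 3 Sertoli cell markers (SOX9, AMH and DHH) summed to 3.13 to 8.79 CPM, against 7.72 to 13.9 CPM in heart. In the same gonad libraries 5 genes listed as mesonephros markers (PAX2, PAX8, LHX1, EMX2 and WT1) summed to 320 to 428 CPM. Their sum was 8.57 to 13.2 CPM in heart and 20.4 to 36.1 CPM in liver. What part of these libraries came from which tissue was not tested. In the liver 333 genes jumped between at most 2 counts in some libraries and at least 300 in others, against 1 gene each in heart and gonads, and HBE2 is among them.

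The 10 genes together took 0.389% to 1.47% of all counts in liver, 0.118% to 0.502% in heart, 0.0535% to 0.173% in gonads and 0.0204% to 0.981% in maternal blood. In heart and gonads the embryonic genes HBE1 and HBZ and the fetal gene HBG made up nearly all of these counts, in liver HBG led and the alpha-type counts were spread over HBZ, HBM, HBA and HBA1, and in maternal blood HBB led. In the liver the erythroid markers (9 genes) summed to 5116 to 7858 CPM, against 93.8 to 231 CPM in heart and 32.8 to 84.9 CPM in gonads. In such bulk samples fewer red cells and less RNA per red cell cannot be told apart.

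**Figure D1:**
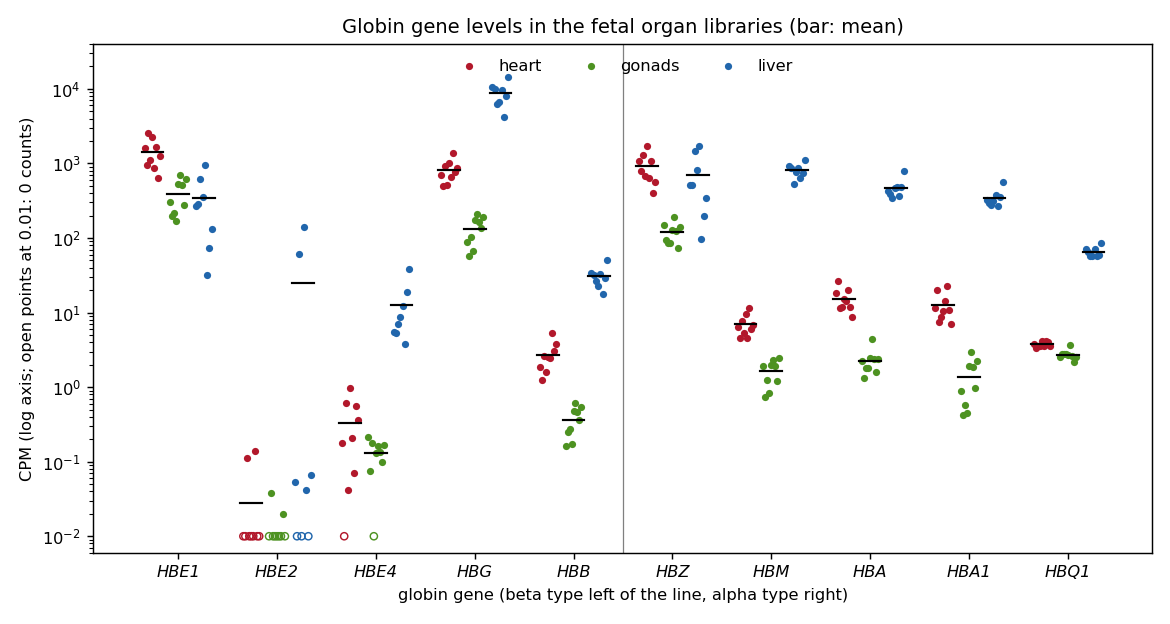
Level of each globin gene in CPM (log axis) in every heart, gonad and liver library; each point is a library, a bar is the mean and an open point stands for 0 counts. HBG, HBB, HBM, HBA, HBA1 and HBQ1 in liver lie above all heart and gonad libraries, whereas HBE1 is highest in heart and HBZ overlaps between liver and heart.

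The first question was how the globin genes differ between the organs. Of the 10 genes, 8 were higher in liver than in heart and 1, HBE1, was lower, by edgeR's quasi-likelihood test with Benjamini-Hochberg adjustment at 0.05. Of all 25095 genes tested, 30.7% were higher in liver and 27.9% lower. The median log2 fold change of the 10 genes was 4.46, and that of all genes was 0. Against gonads, 9 of the 10 were higher in liver (33.6% of all genes were), with a median of 6.47 beside 0 for all genes. Both counts include HBE2, whose calls were lost without the livers of fetuses 3 and 5, a choice made after seeing the data. The edgeR adjusted p of HBE2 was then 0.95 against heart and 0.223 against gonads. In heart 8 of the 10 were higher than in gonads (23.5% of all genes were), with a median of 2.36 beside -0.08 for all genes. The gonad comparisons depend on the scaling as a whole: with library totals in place of TMM factors the median of all genes fell to -1.07 in heart against gonads and -0.91 in liver against gonads. Of the genes called between heart and gonads, 50.5% were higher in heart with TMM factors and 14.2% with library totals, and between liver and gonads 52.2% and 28.7% were higher in liver.

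Over all organ libraries, the embryonic gene HBE1 was the only globin gene called lower in liver than in heart. It ranged from 629 to 2568 CPM in heart (median 1267), from 168 to 703 CPM in gonads (median 300.2) and from 31.9 to 941 CPM in liver (median 276). The heart libraries were the highest, and a liver library (fetus 5) and a gonad library (fetus 7) reached into their range. HBE1 was 4.25-fold higher in heart than in liver (log2 fold change of liver over heart -2.09, SE 0.47, n = 8 and 9, edgeR adjusted p = 0.000449) and 3.67-fold higher in heart than in gonads (log2 1.87, SE 0.45, adjusted p = 0.00105 by edgeR). The difference from gonads lost its call with library totals (edgeR adjusted p = 0.103). Liver and gonads did not pass the test (log2 -0.21, SE 0.45, edgeR adjusted p = 0.692). HBE1 was lower in liver than in gonads with library totals (log2 -1.20, edgeR adjusted p = 0.0305) and without the liver libraries of fetuses 3 and 5, a choice made after seeing the data (log2 -1.04, edgeR adjusted p = 0.038).

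HBZ, whose chain pairs with the epsilon chain in embryonic haemoglobin, shared this picture in part. Its level was 918 ± 418 CPM in heart (SD, n = 9), 119 ± 37.9 CPM in gonads (n = 9) and 708 ± 594 CPM in liver (n = 8). It was higher in heart than in gonads without overlap (log2 2.95, SE 0.41, edgeR adjusted p = 6.48e-07) and higher in liver than in gonads with overlap (log2 2.57, SE 0.41, edgeR adjusted p = 3.25e-06). Liver and heart overlapped and did not pass the test (log2 -0.38, SE 0.39, edgeR adjusted p = 0.424). Without the liver libraries of fetuses 3 and 5 HBZ was lower in liver than in heart (log2 -1.16, edgeR adjusted p = 0.00711).

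HBG, the fetal beta-type gene, took the largest share of globin counts in the liver. It ranged from 4182 to 14347 CPM in liver (median 8877), from 503 to 1376 CPM in heart (median 769) and from 57.0 to 208 CPM in gonads (median 137). The 3 organs did not overlap. HBG was 10.7-fold higher in liver than in heart (log2 3.42, SE 0.29, edgeR adjusted p = 4.44e-11) and 6.17-fold higher in heart than in gonads (log2 2.62, SE 0.28, edgeR adjusted p = 6.66e-09).

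HBB, the adult beta-type gene, was low in all 3 organs. It was 30.7 ± 9.79 CPM in liver (SD, n = 8), 2.72 ± 1.25 CPM in heart and 0.368 ± 0.164 CPM in gonads (n = 9 each), without overlap. Its liver level was 11.2-fold that in heart (log2 3.49, SE 0.30, edgeR adjusted p = 3.78e-11). The HBB count followed the HBG count most closely in liver, with 0.317 to 0.421 HBB counts per 100 HBG counts (a spread of 1.33-fold). There were 0.251 to 0.433 in heart (1.73-fold) and 0.181 to 0.433 in gonads (2.39-fold), where a library held 6 to 32 HBB counts. Whether reads shared between these similar genes make up part of that ratio was not tested.

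The other epsilon-type genes, HBE4 and HBE2, were rare. HBE4 held 90 to 594 counts per library in liver (3.79 to 38.8 CPM), 0 to 22 counts in heart and 0 to 10 in gonads. It was higher in liver than in heart (log2 5.23, SE 0.66, edgeR adjusted p = 8.6e-08), without overlap, and heart and gonads did not pass the test (log2 1.34, SE 0.61, edgeR adjusted p = 0.0699). HBE2 held 1045 counts in the liver of fetus 3 and 4270 in that of fetus 5, and 0 or 1 in the other 6 livers, with 0 to 4 counts in any heart or gonad library. Its call between liver and heart (edgeR adjusted p = 3.51e-05) rested on these 2 libraries and was lost without them (edgeR adjusted p = 0.95), as was its call against gonads (edgeR adjusted p = 5.8e-06 and 0.223).

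The genes of the alpha cluster other than HBZ were liver genes in these data. HBM ranged from 535 to 1129 CPM in liver, from 4.60 to 11.5 CPM in heart and from 0.741 to 2.44 CPM in gonads. It showed the steepest step from heart to liver among the genes that did not rest on 2 libraries, at 116-fold (log2 6.86, SE 0.27, edgeR adjusted p = 1.54e-18). HBA ranged from 341 to 783 CPM in liver, from 8.64 to 26.8 CPM in heart and from 1.31 to 4.42 CPM in gonads. Each organ stood apart from the next, and HBA was 30.4-fold higher in liver than in heart (log2 4.93, SE 0.25, edgeR adjusted p = 3.54e-16).

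HBA1, the neighbouring alpha gene, was 27.5-fold higher in liver than in heart (log2 4.78, SE 0.35, edgeR adjusted p = 1.38e-12) at 267 to 561 CPM in liver and 6.99 to 22.4 CPM in heart. HBA1 counts per 100 HBA counts were 66.5 to 80.9 in liver, 63.0 to 113 in heart and 25 to 92.9 in gonads, where there were only 22 to 146 HBA1 counts per library. HBA1 took 20% to 28.7% of the HBA and HBA1 counts in ET_D7 gonads and 38.0% to 48.2% in ET_D9 gonads, 38.6% to 42.8% in ET_D7 hearts and 44.7% to 53.1% in ET_D9 hearts, and 39.9% to 44.7% in ET_D7 livers and 41.7% to 42.3% in ET_D9 livers. The transfer groups did not overlap in gonads and heart and overlapped in liver, again without a test. The Clopper-Pearson interval of this share, for counting error only, was up to 18.5 percentage points wide in gonads and 9.91 in heart. These widths exceed the gap between the transfer groups in both organs, and whether the separation goes beyond counting error was not tested. Whether reads shared between HBA and HBA1 make up part of these shares was not tested either. HBQ1 was 65.8 ± 9.90 CPM in liver (SD, n = 8), 3.74 ± 0.301 CPM in heart and 2.73 ± 0.405 CPM in gonads (n = 9 each). In heart its SD was the smallest relative to the mean among the 10 genes. Its small excess in heart over gonads (log2 0.45, SE 0.10, edgeR adjusted p = 0.000625) turned into a deficit with library totals (log2 -0.58, edgeR adjusted p = 0.00199).

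**Figure D2:**
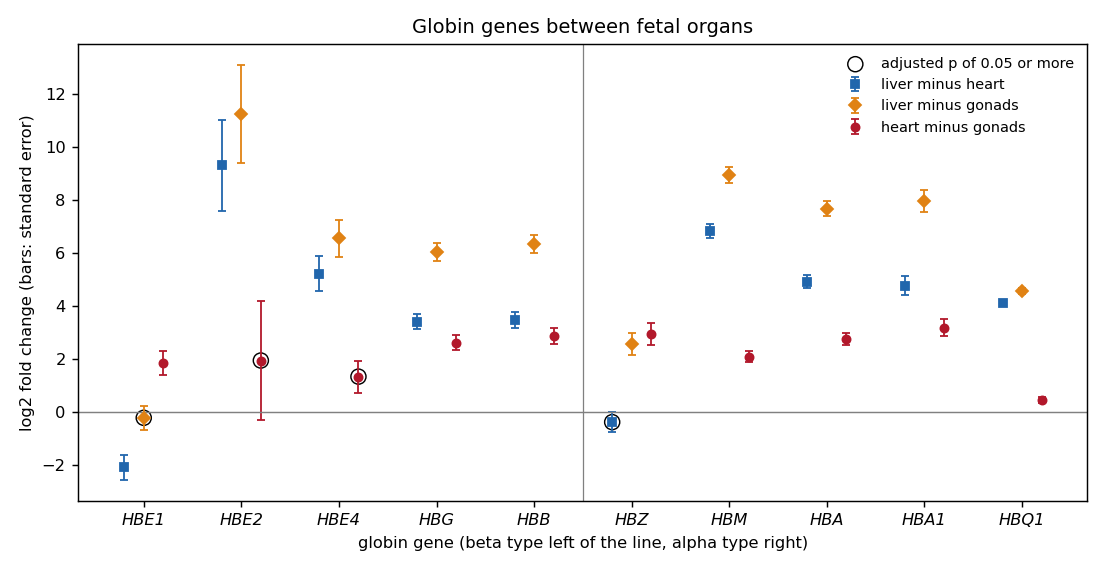
Log2 fold change of each globin gene between organs (vertical axis, bars are standard errors) for liver minus heart, liver minus gonads and heart minus gonads; a ring marks an adjusted p of 0.05 or more. HBE1 alone lies clearly below 0 for liver minus heart (-2.09), and the wide bars of HBE2 belong to a gene with more than 1 count in only 2 livers.

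Shares within a library do not depend on how libraries are scaled. HBE1 took 45.0% to 73.4% of the HBE1 and HBG counts in heart, 67.1% to 77.5% in gonads and 0.758% to 9.03% in liver, so liver stood apart from the other organs. Each share is known within 1.44 percentage points or less from counting (95% Clopper-Pearson interval, which covers counting error only). HBZ took 92.4% to 97.8% of the alpha-type counts in heart, 92.4% to 95.2% in gonads and 6.94% to 54.7% in liver. There were 180 to 308 HBZ counts per 100 HBE1 counts in liver, 44.7 to 82.3 in heart and 22.7 to 51.6 in gonads. Heart and gonads overlapped in that ratio and liver stood apart from both. The transfer groups overlapped in heart but not in gonads (39.8 to 51.6 in ET_D7 and 22.7 to 27.1 in ET_D9) or liver (180 to 232 in ET_D7 and 261 to 308 in ET_D9), which is a description without a test.

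The HBE1 share stood apart between the transfer groups in heart and liver. In heart it was 69.6%, 65.5%, 73.4%, 68.6% and 69.2% in fetuses 1 to 5 of ET_D7, and 57.0%, 54.9%, 45.0% and 59.5% in fetuses 6, 8, 9 and 10 of ET_D9. The heart groups did not overlap. In liver the share was 2.49%, 2.79%, 9.03%, 5.12% and 8.87% in ET_D7, and 0.758%, 0.901% and 0.907% in ET_D9. The liver groups did not overlap either, and the highest shares were those of fetuses 3 and 5. In gonads the groups overlapped, with 67.8% to 77.5% in ET_D7 and 67.1% to 77.1% in ET_D9. These shares are given as a description without a test.

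**Figure D3:**
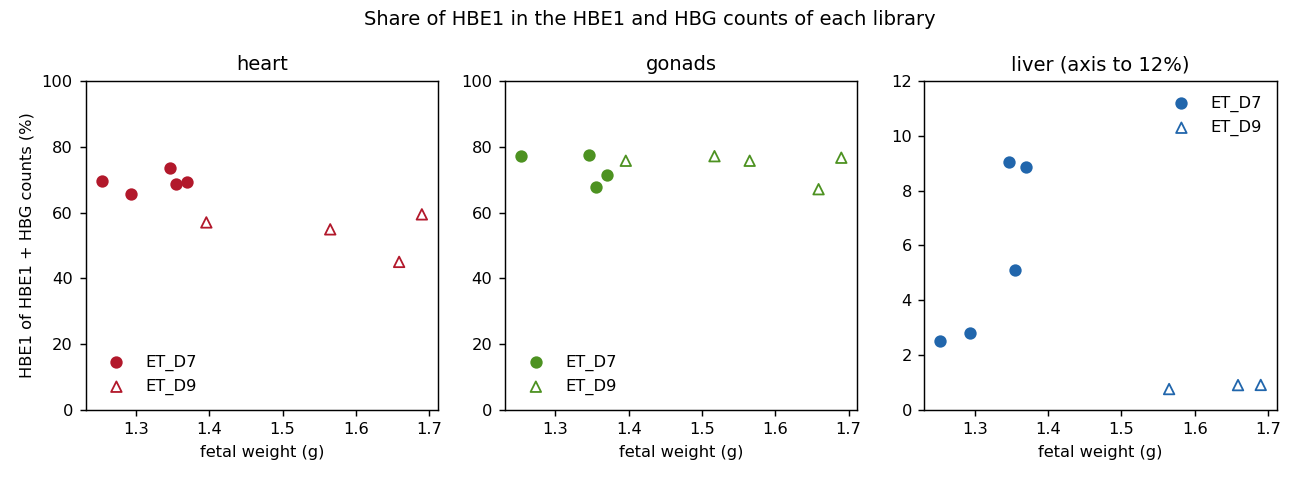
Share of HBE1 in the HBE1 and HBG counts of each library (%, vertical axis; the liver axis ends at 12%) against fetal weight (g), with filled circles for ET_D7 and open triangles for ET_D9. The ET_D9 libraries lie below all ET_D7 libraries in heart and liver and among them in gonads.

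The second question was how the globin genes vary with fetal weight and transfer day within an organ. In liver 9 of the 10 genes passed the filter of 10 counts in 4 libraries (HBE2 did not). Of these, 3 changed with weight in a spline fit (HBE1, HBZ and HBE4), against 1.81% of all genes. In the comparison of ET_D9 with ET_D7, 1 of the 9 (HBE1) was lower in ET_D9, against 3.64% of all genes, and none was higher (0.506% of all genes were). In the linear fit none of the 9 passed edgeR's test, against 2.23% of all genes, with 3 at an unadjusted p under 0.05 (17.2% of all genes). DESeq2 called 1 of the 9 in the linear fit (9.14% of all genes), 2 by transfer group (9.15%) and 7 in the spline fit (10.6%).

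In liver HBE1 stood at 267, 285, 628, 356 and 941 CPM in fetuses 1 to 5 and at 31.9, 73.6 and 131 CPM in fetuses 8, 9 and 10. All ET_D7 livers were above all ET_D9 livers, by 6.74-fold in the fit (log2 fold change of ET_D9 over ET_D7 -2.75, SE 0.60, n = 3 and 5, edgeR adjusted p = 0.0364). Within ET_D9 the heavier fetuses were higher, and within ET_D7 the highest were fetuses 5 and 3. The spline over weight gave an edgeR adjusted p of 0.0164. The linear slope was -0.68 per 0.1 g (SE 0.26, edgeR adjusted p = 0.218), and with transfer group in the model it became 1.56 (edgeR adjusted p = 0.664).

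HBZ followed HBE1 through the livers, at 511, 513, 1457, 808 and 1737 CPM in fetuses 1 to 5 and 98.5, 195 and 342 CPM in fetuses 8, 9 and 10. The groups did not overlap, but the difference missed the threshold (log2 -2.36, SE 0.58, edgeR adjusted p = 0.0533). Its spline passed (edgeR adjusted p = 0.0165). As a share of the alpha-type counts HBZ was 22.8% to 54.7% in ET_D7 livers and 6.94% to 11.8% in ET_D9 livers.

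HBE4 took another course. It stood at 5.55, 5.35, 7.06, 8.82 and 12.3 CPM in fetuses 1 to 5 and at 3.79, 19.0 and 38.8 CPM in fetuses 8, 9 and 10. The 2 heaviest fetuses were the highest and fetus 8 the lowest, so the transfer groups overlapped (log2 1.29, SE 0.59, edgeR adjusted p = 0.304). Its spline passed (edgeR adjusted p = 0.0198) and its linear slope of 0.47 per 0.1 g did not (SE 0.15, edgeR adjusted p = 0.131).

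The fetal gene HBG overlapped between the transfer groups in liver. HBG was 10459, 9954, 6323, 6599 and 9666 CPM in fetuses 1 to 5 and 4182, 8088 and 14347 CPM in fetuses 8, 9 and 10. Fetuses 8 and 10, both ET_D9, were the lowest and the highest, and the groups did not pass the test (log2 -0.05, SE 0.37, edgeR adjusted p = 0.971). HBM, HBA, HBA1, HBB and HBQ1 likewise overlapped between the groups, with log2 fold changes from -0.05 to 0.26 and edgeR adjusted p values of 0.676 or more. In the spline fit HBG (edgeR adjusted p = 0.183, unadjusted p = 0.0132), HBB (edgeR adjusted p = 0.165, unadjusted 0.00894), HBA1 (edgeR adjusted p = 0.226, unadjusted 0.0263) and HBA (edgeR adjusted p = 0.24, unadjusted 0.0316) missed the threshold, while DESeq2 called all 4 (HBG at an adjusted p of 9.85e-05 by DESeq2). With the 3 genes called, 7 of the 9 had an unadjusted p under 0.05 in the spline, against 17.9% of all genes.

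The erythroid marker sum in liver overlapped between the transfer groups, at 5116 to 6545 CPM in ET_D7 livers and 5974 to 7858 CPM in ET_D9 livers, and the heart marker sum was 10.5 to 1986 CPM in ET_D7 and 10.1 to 107 CPM in ET_D9. The sum of 5 leukocyte markers did not overlap, at 17.9 to 33.9 CPM in ET_D7 and 13.9 to 16.5 CPM in ET_D9. Of the 4 of these that passed the filter 2 were lower in ET_D9, against 3.64% of all genes. They were ITGAM, an integrin of myeloid cells (log2 -4.23, SE 0.52, edgeR adjusted p = 0.00128), and CD79A, part of the B cell receptor (log2 -8.25, SE 1.76, edgeR adjusted p = 0.0337). The median of the 4 was -2.15 beside -0.042 for all genes. PTPRC and LCP1, which also passed the filter, overlapped between the groups. PTPRC was 1.76 to 4.06 CPM in ET_D7 and 2.55 to 3.40 CPM in ET_D9, and LCP1 4.83 to 13.3 CPM and 10.3 to 12.5 CPM. The neutrophil marker sum overlapped too, at 53.9 to 116 CPM in ET_D7 and 58.8 to 77.3 CPM in ET_D9. ITGAM held 29 to 79 counts in ET_D7 livers and 3 to 5 in ET_D9 livers. CD79A held 0 counts in fetus 4 and 127 to 643 in the other ET_D7 livers, with 0 or 1 in ET_D9. The part of these cell types in the HBE1 and HBZ results was not tested.

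The liver calls rest on few libraries. Leaving out fetus 3, 5, 8, 9 or 10 ended the HBE1 call between transfer groups (edgeR adjusted p from 0.0555 to 0.157), while the log2 fold change stayed between -3.29 and -2.34 with any 1 fetus left out. The call also ended without fetuses 3 and 5 together (log2 -2.05, edgeR adjusted p = 0.104) and with every gene of at least 1 count tested (log2 -2.76, edgeR adjusted p = 0.0556). Leaving out fetus 8, 9 or 10 ended all 3 spline calls (edgeR adjusted p from 0.0786 to 0.893).

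**Figure D4:**
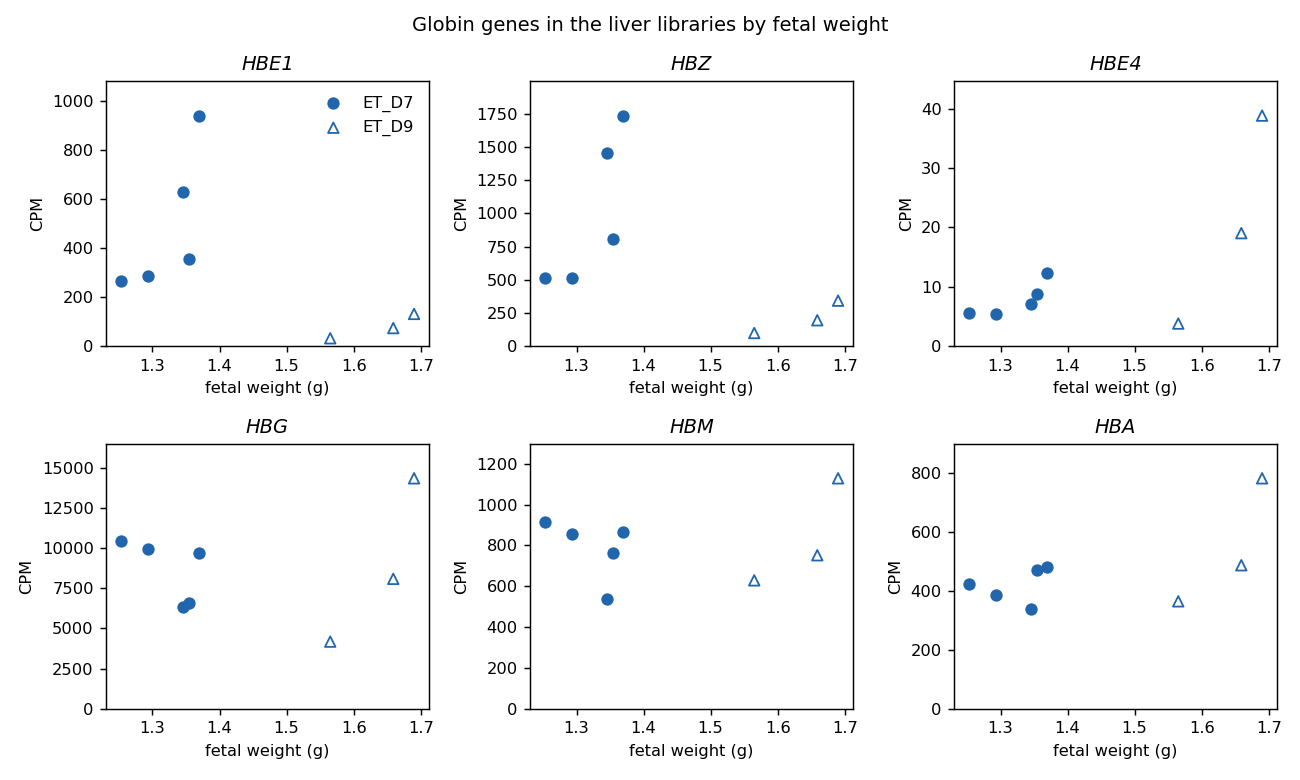
Level in CPM of HBE1, HBZ, HBE4, HBG, HBM and HBA in each liver library against fetal weight (g), with filled circles for ET_D7 and open triangles for ET_D9. HBE1 and HBZ in the 3 ET_D9 livers lie below every ET_D7 liver, HBE4 peaks at 38.8 CPM in the heaviest fetus, and HBG, HBM and HBA overlap.

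In gonads 8 of the 10 genes passed the filter (HBE2 and HBE4 did not), and 1 of these, HBG, was higher in ET_D9, against 0.135% of all genes. HBG stood at 89.4, 57.0, 102 and 67.6 CPM in fetuses 1, 3, 4 and 5 of ET_D7 and at 172, 208, 166, 137 and 189 CPM in fetuses 6 to 10 of ET_D9. The groups did not overlap, and HBG was 2.25-fold higher in ET_D9 (log2 1.17, SE 0.19, n = 5 and 4, edgeR adjusted p = 0.0495). HBA1 (log2 1.81, SE 0.34, edgeR adjusted p = 0.0586), HBE1 (log2 1.31, SE 0.26, edgeR adjusted p = 0.0625), HBB (log2 1.22, SE 0.33, edgeR adjusted p = 0.105) and HBM (log2 0.79, SE 0.30, edgeR adjusted p = 0.197) had positive values that missed the threshold. The values of HBA (log2 0.60, SE 0.28, edgeR adjusted p = 0.281), HBZ (log2 0.37, SE 0.26, edgeR adjusted p = 0.483) and HBQ1 (log2 0.03, SE 0.16, edgeR adjusted p = 0.936) were smaller. HBE1 was 300.2, 196, 214 and 168 CPM in ET_D7 and 537, 703, 519, 279 and 621 CPM in ET_D9, where fetus 9 fell among the ET_D7 values.

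The erythroid marker sum in gonads was 32.8 to 44.6 CPM in ET_D7 and 34.5 to 84.9 CPM in ET_D9, and its part in the HBG result was not tested. The HBG call was lost without fetus 3, 5, 6, 7, 8 or 10 (edgeR adjusted p from 0.058 to 0.197), while the log2 fold change stayed between 1.05 and 1.32 with any 1 fetus left out. It was also lost with DESeq2 size factors (edgeR adjusted p = 0.0505), with TMM factors without mitochondrial genes (edgeR adjusted p = 0.0539) and with every gene of at least 1 count tested (edgeR adjusted p = 0.0525). DESeq2 called 4 of the 8 genes by transfer group, against 5.28% of all genes. By weight none of the 8 passed edgeR's test, in the linear or the spline fit (0.0% of all genes in each), and DESeq2 called none (0.0% and 7.63% of all genes). At an unadjusted p under 0.05 there was 1 in each fit, HBG, against 5.62% and 12.6% of all genes.

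In heart 9 of the 10 genes passed the filter (HBE2 did not) and none passed edgeR's test by transfer group (0.0492% of all genes did), by linear weight (6.77%) or by spline (0.0%), and DESeq2 called 1, 1 and 0 (13.3%, 18.9% and 3.29% of all genes). At an unadjusted p under 0.05 there was 1 gene in each fit, HBB, against 24.6%, 29.1% and 7.99% of all genes. HBB was 1.84, 1.26, 2.65, 1.60 and 2.54 CPM in fetuses 1 to 5 and 2.42, 5.37, 3.08 and 3.74 CPM in fetuses 6, 8, 9 and 10. The groups overlapped, with fetus 6 below fetuses 3 and 5 (log2 0.88, SE 0.29, edgeR adjusted p = 0.109). The HBB slope was 0.31 per 0.1 g (SE 0.10, edgeR adjusted p = 0.073), and DESeq2 called HBB in both fits. HBE1 and HBZ had values below 0 in heart (log2 -0.62, SE 0.35, and -0.73, SE 0.33) with edgeR adjusted p values of 0.304 and 0.211.

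The weight slopes of the organs were compared in 1 fit over the 26 organ libraries, a fit added after seeing the data. None of the 9 genes tested differed between any pair of organs by edgeR's test, where 5.14% of all genes did between liver and gonads, 8.15% between liver and heart and 0.0357% between heart and gonads. At an unadjusted p under 0.05 there were 2 of the 9 between liver and gonads (16.8% of all genes), 1 between liver and heart (23.1%) and 0 between heart and gonads (7.42%). The HBE1 slope in liver minus that in gonads was the nearest to the threshold (-0.94 per 0.1 g, SE 0.28, edgeR adjusted p = 0.0521).

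Maternal blood held the adult set. HBB ranged from 197 to 9330 CPM (median 898), a spread of 47.5-fold between heifers. In heifers 1 to 5 it was 9330, 788, 3084, 205 and 533 CPM and in heifers 6 to 10 it was 4135, 1009, 3042, 197 and 320 CPM. Heifer 1 stood highest, heifers 4 and 9 lowest, and the transfer groups overlapped.

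HBA, HBA1, HBG and HBM rose and fell with HBB in blood. HBA reached 119 CPM in heifer 1 and was lowest in heifer 4, HBA1 from 0.834 to 49.7 CPM, HBG from 0.932 to 38.9 CPM and HBM from 0 to 20.9 CPM. HBG amounted to 0.373 to 0.660 counts per 100 HBB counts in every heifer, and whether reads shared with HBB make up part of the HBG count was not tested. Over the 10 libraries, which share a kit and differ in depth, the Pearson correlation of log2(CPM + 1) with HBB was 0.99 for HBG, 0.99 for HBA, 0.98 for HBM, 0.98 for HBA1 and 0.59 for HBQ1, which stayed between 2.20 and 4.63 CPM. Among all other genes those most like HBB were REEP1 (0.98), LOC107131333 (0.98), SSX5 (0.98), ATP5IF1 (0.97) and SLC4A1, the band 3 anion exchanger of the red cell membrane (0.97). The erythroid marker sum ranged from 24.4 to 310 CPM, with heifer 1 highest.

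The embryonic genes were at the floor in blood. HBZ had 0 counts in all 10 libraries, which allows up to 0.0735 to 0.113 CPM (3 counts per library). HBE1 had 0 counts in 6 libraries and at most 4 in the others, HBE2 0 in 7 and at most 7, and HBE4 0 in 8 and at most 6. These genes were not detected beyond the few counts that this depth can show.

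In blood 6 of the 10 genes passed the filter, and none passed edgeR's test by transfer group (0.0% of all genes did), by linear weight (0.0%) or by spline (0.129%), and DESeq2 called none (0.399%, 0.755% and 2.99% of all genes). At an unadjusted p under 0.05 there were 0, 2 and 0 genes, against 7.6%, 9.69% and 9.77% of all genes. The linear slopes were -0.88 per 0.1 g for HBA (SE 0.34), -0.79 for HBA1 (SE 0.33), -0.70 for HBB (SE 0.32), -0.73 for HBG (SE 0.34), -0.67 for HBM (SE 0.38) and -0.01 for HBQ1 (SE 0.08), with edgeR adjusted p values from 0.45 to 0.977. The sum of 5 leukocyte markers in blood was 6148 to 6731 CPM in ET_D7 and 6899 to 7346 CPM in ET_D9, without overlap. None of the 5 passed edgeR's test by transfer group (0.0% of all genes did), with a median log2 fold change of 0.12 beside 0.01 for all genes. The neutrophil, platelet and macrophage marker sums in blood overlapped between the groups.

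**Figure D5:**
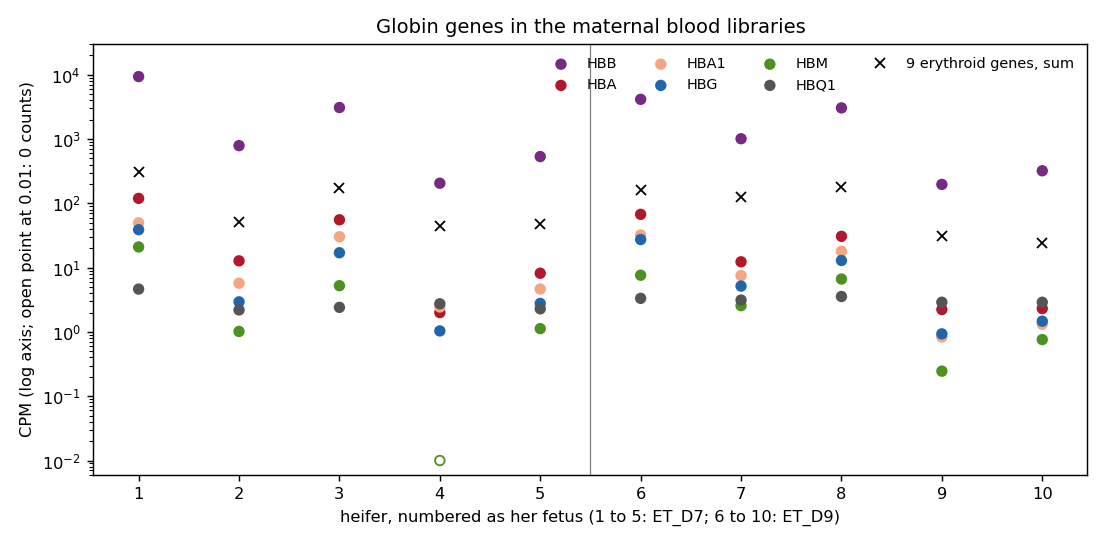
Level in CPM (log axis) of 6 globin genes and the sum of 9 erythroid marker genes in the blood library of each heifer, with ET_D7 left and ET_D9 right of the line; an open point stands for 0 counts. HBB spans 197 to 9330 CPM with heifer 1 highest, HBA, HBA1, HBG and HBM follow it, and HBQ1 stays between 2.20 and 4.63 CPM.

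Among the organ libraries, with each organ's mean removed, the log2(CPM + 1) values of HBE1 and HBZ moved together (Pearson r = 0.94 over 26 libraries), and those of HBG were nearest to HBM (0.87) and HBB (0.81). Outside the globin genes the nearest to HBE1 was LOC513241 (0.89), a pseudogene that lies within the beta-type cluster, followed by LOC100847469 (0.84), PIPOX, TMEM121B and LOC514011 (0.81 each). The nearest to HBG were the ribosomal protein genes RPL18 (0.87), RPS21 (0.86) and RPS19 (0.85) with INO80C (0.86) and CCDC167 (0.83), and those nearest to HBZ were LOC513241 and LOC100847469 (0.85 each), DHPS (0.82), a gene without a symbol in RefSeq (0.82) and TMEM121B (0.81). These values describe libraries that share a kit and differ in depth. In the beta cluster 4 other loci, LOC528470, LOC513241, LOC787671 and LOC100124405, held 376 to 2174 counts over all 36 libraries. LOC513241 held at most 237 counts in a library. Whether reads shared with globin genes make up part of its counts, and so of its likeness to HBE1 and HBZ, was not tested.

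Genes of haemoglobin production and of its clearance were mostly higher in liver as well, and the median log2 fold change of liver over heart was 3.43 for heme synthesis, 3.46 for globin gene regulators, 4.43 for red cell membrane genes, 2.19 for iron uptake and 4.66 for haemoglobin clearance, beside 0 for all genes. Of all genes 30.7% were higher in liver than in heart and 33.6% were higher in liver than in gonads. All 12 genes of heme synthesis were higher in liver than in heart and than in gonads, among them ALAS2, the erythroid form of the first enzyme (log2 4.44 over heart, at 1226 CPM in liver and 56.5 in heart) and ALAD (3.84). All 13 regulators of globin genes were higher in liver than in both other organs, led by level by SOX6 (log2 5.58 over heart), TAL1 (4.63) and KLF1 (7.14), transcription factors of the red cell lineage. AHSP, which binds free alpha chains, was 7.75 higher on the log2 scale in liver than in heart, and with EIF2AK1, the heme-regulated translation kinase (2.75), and BPGM (1.29) all 3 genes of its list were higher.

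Between liver and heart 30.7% of all genes were higher in liver and 27.9% lower. Of 14 genes of the red cell membrane 13 were higher in liver than in heart, including SPTB (log2 5.28) and KEL (5.06), and TMOD1 was lower (log2 -0.57). Of 7 genes of iron uptake and storage 6 were higher, including SLC25A37 (2.98), FTH1 (2.19) and FTL (1.75), and SLC11A2 missed the test (0.14). The 5 genes of haemoglobin clearance were all higher in liver, among them HPX, the heme scavenger made by hepatocytes (12.44), BLVRB (4.66) and HMOX1 (3.33). All of these values are log2 fold changes of liver over heart from edgeR, with adjusted p values under 0.05 except for SLC11A2.

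Between heart and gonads 23.5% of all genes were higher in heart and 23.1% lower. Of the 12 heme synthesis genes 7 were higher and 3 lower in heart, the 3 being CPOX, FECH and ABCB10. Of the 13 regulators 11 were higher and MYB, a factor of early progenitors, was lower (log2 -2.19). Of the 14 membrane genes 10 were higher and GYPB was lower (log2 -1.37). In liver none of these lists had a gene that passed edgeR's test by transfer group (3.64% of all genes were lower and 0.506% higher), by linear weight (2.23%) or by spline (1.81%). In the same fits in heart and gonads 3 genes of these lists passed. HMOX1, 1 of the 3 clearance genes tested, was higher in ET_D9 gonads (log2 0.69, edgeR adjusted p = 0.0495), against 0.135% of all genes. ALAD, 1 of 12 heme synthesis genes, fell with weight in heart (log2 -0.17 per 0.1 g, edgeR adjusted p = 0.0419). So did ANK1, an ankyrin of the red cell membrane and 1 of 14 membrane genes (log2 -0.13, edgeR adjusted p = 0.0478). In that fit 6.77% of all genes passed, in either direction.

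Of the globins outside the haemoglobin clusters, MB was 538 CPM on average in heart, 2.51 in gonads and 0.424 in liver. CYGB, the cytoglobin of many cell types, was at 26.3, 21.1 and 8.33 CPM in heart, gonads and liver, lower in liver than in heart (log2 -1.66, edgeR adjusted p = 8.2e-09). NGB, the neuronal globin, had 0 counts in heart and liver and 0.126 CPM on average in gonads. In maternal blood MB reached 213 CPM in heifer 2 and 151 CPM in heifer 5, against 0 to 2.14 CPM in the other 8, and MYH7, a myosin of slow muscle and heart, was at 3338 and 1095 CPM in the same 2 libraries. HBB in those 2 libraries, at 788 and 533 CPM, lay within the range of the other heifers.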

How the data were processed

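Gene counts of 36 libraries (26 from fetal organs, 10 from maternal blood) were analysed. The authors trimmed reads with Trimmomatic, aligned them to the ARS-UCD1.3 assembly with STAR (version 2.7.0b), assigned them to genes by featureCounts (Subread 2.0.3) and deposited whole-number counts, with no normalization stated; the tools and versions are those of the submitters' processing notes. Organ libraries were made with the TruSeq stranded mRNA kit and blood libraries with the SMARTer Stranded kit. Strand and multi-mapping settings are not given in the sources used here. Symbols came from RefSeq by Entrez ID (31630 of 35092 matched).

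The globin genes, pathway lists and marker lists were chosen with earlier results of these data known. The text gives all globin genes, MB, CYGB, NGB, AHSP, the 3 members of each pathway list highest in the organs, and the 5 other genes most like HBG, HBZ, HBE1 and, in blood, HBB. TMOD1, SLC11A2, CPOX, FECH, ABCB10, MYB, GYPB, ANK1, ITGAM, CD79A, PTPRC, LCP1 and MYH7 were named after their values were seen. The Sertoli cell and mesonephros marker lists are named in full. The loci within the clusters were named by position. Some genes that this rule names are not reported here. Likeness is Pearson's r over genes with a mean of at least 1 CPM.

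Tests used edgeR 4.0.16 (R 4.3.3), TMM factors and the quasi-likelihood test, with Benjamini-Hochberg adjustment over all genes tested. Organs were compared in 1 fit of 26 libraries over genes with at least 1 count in 1 library. Within a tissue, weight (natural spline with 3 degrees of freedom, or linear per 0.1 g) and transfer group were fitted over genes with at least 10 counts in 4 libraries. SE is the size of the log2 fold change divided by the square root of F. Printed CPM used TMM factors over the 26 organ libraries, or the 10 blood libraries, so a ratio of printed means can differ from a fitted fold. Fetuses are separate animals. The code was tested on simulated data. Alternatives were DESeq2 1.42.0 (test or size factors), library totals, TMM factors without mitochondrial or globin genes, other filters, covariates, and leaving out each fetus.

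Organs of the same fetus share its number in the labels, so the numbers pair libraries across organs. The median correlation of their deviations from the organ means was 0.12 for heart and gonads (8 pairs), 0.02 for heart and liver (8) and 0.03 for gonads and liver (7).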

Additional observations from a re-analysis of the deposited data

Results flagged for a closer look

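For each globin gene and tissue the highest and the lowest library were compared with the nearest other library by Dixon's criterion at the 95% level. Of 39 sets of values 9 had a library that stood apart, in each case the highest. The criterion assumes normally distributed values, while CPM was used without logs here. Sets of genes that rise and fall together are not independent, so the 9 cannot be set against a rate by chance. In liver the heaviest fetus, number 10, was apart for HBA (783 CPM, next 488), HBA1 (561 CPM, next 375) and HBE4 (38.8 CPM, next 19.0), and fetus 5 was apart for HBE2 (139 CPM, next 61.5). In gonads fetus 7 was apart for HBA (4.42 CPM, next 2.47) and HBQ1 (3.68 CPM, next 2.80). In maternal blood heifer 1 was apart for HBB (9330 CPM, next 4135) and HBM (20.9 CPM, next 7.61), and heifer 3 for HBE4, at 0.146 CPM against 0.0740 for the next, which are at most 6 counts. No cause was tested.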

How the results depend on the processing

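The organ counts of 8, 9 and 9 globin genes called moved by at most 1 under every alternative. With the fetus as a replicate block they were 8 for heart against gonads, 9 for liver against gonads and 9 for liver against heart, and no call of a gene changed in this paired fit. With a log2 fold change above 1 in size also required, heart against gonads kept 7. With library totals HBQ1 in heart over gonads reversed to -0.58, and without the livers of fetuses 3 and 5 HBE2 in liver over heart reversed to -0.17 (chosen after seeing the data). Leaving out 1 fetus moved HBE1 in liver over gonads between -0.73 and 0.022. By transfer group the gonads (1 gene) had 0 with DESeq2 size factors, 0 with TMM factors without mitochondrial genes, 0 with every gene of at least 1 count, 4 by DESeq2's test and 0 to 3 without 1 fetus. Over all genes the gonad count was 63, against 6, 6, 3 and 940. By transfer group the liver (1 gene) had 0 with every gene of at least 1 count, 0 without fetuses 3 and 5, 2 by DESeq2 and 0 to 2 without 1 fetus, and the heart (0) had 1 by DESeq2 and 0 to 1 without 1 fetus. By linear weight heart and liver (0 each) had 1 each by DESeq2 and 0 to 1 each without 1 fetus. By spline the liver (3) had 7 by DESeq2 and 0 to 4 without 1 fetus. With transfer group in the model the linear slopes turned to 1.56 (HBE1) and 1.53 (HBZ) in liver and to -0.23 (HBA1), -0.015 (HBB), -0.18 (HBE1), -0.068 (HBG) and -0.16 (HBM) in gonads. Without 1 fetus the liver transfer values ran from -0.073 to 0.52 (HBA), -0.12 to 0.46 (HBA1), -0.40 to 0.38 (HBB) and -0.54 to 0.32 (HBG), the liver slopes from -0.095 to 0.097 (HBB) and -0.14 to 0.074 (HBG), and the blood transfer values from -1.74 to 0.23 (HBA) and -1.43 to 0.15 (HBA1), none of them called. The cause of these shifts was not tested. Depth limits HBE2 and HBE4 outside liver and the embryonic genes in blood, and 8 to 10 libraries per tissue limit the rest.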
